A study of Mus musculus with 81 samples.

Results

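Plac8, Plbd1, F13a1, Vcan and Hp, 5 genes used here as a monocyte-stage group, were followed through every RNA-seq library of a study of histone H3.3 loss in mouse myeloid cells. They are 5 of the 54079 genes listed in every count file and were taken by symbol. Plac8 and Plbd1 were chosen by their higher counts in H3.3-deleted than in control cells of these same data, so their differences between genotypes are given as a description with no test. Their tests within a genotype and against double KOs share libraries with that choice, so those p-values are not free of it. F13a1, Vcan and Hp entered as monocyte-stage genes, and their differences between genotypes were tested.

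Blood monocytes arise in the bone marrow from granulocyte-monocyte progenitors, and in culture with colony-stimulating factor 1 such progenitors pass through a monocyte stage before they become macrophages. Plac8 encodes a small cysteine-rich protein of leukocytes, and Plbd1 encodes a phospholipase B-like protein first isolated from neutrophil granules. F13a1 encodes the A subunit of coagulation factor XIII, a transglutaminase that cross-links fibrin and is made by monocytes and some tissue macrophages. Vcan encodes versican, a large matrix proteoglycan, and Hp encodes haptoglobin, a haemoglobin-binding plasma protein that neutrophil precursors also make.

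The control mice, called WT, carried floxed H3f3a and H3f3b, the genes that encode H3.3, without Cre. The cKO mice carried the same floxed alleles with LysM cre/cre, which drives deletion in the myeloid lineage and replaces Lyz2, so that loss of H3.3 and loss of Lyz2 cannot be told apart. The mice were on the C57BL/6 background, and marrow donors were 8 to 10 weeks old. Bone marrow cells were grown in medium with 20% L929 conditioned medium, a source of colony-stimulating factor 1, into bone marrow-derived macrophages (BMDMs). A time course held WT and cKO cultures on days 3, 5 and 7. Day 8 BMDMs were left untreated or given interferon-γ (IFNγ) for 12 h. Another experiment grew WT and cKO BMDMs with no antibody, with a control antibody or with an antibody to the type I interferon receptor subunit IFNAR1, each antibody at 10 μg/mL with fresh antibody every 12 h until day 6. A further experiment held 3 sets of WT and cKO BMDMs and cKO BMDMs that also lacked Sting, Mavs or Irf7 (H3.3cKO:StingKO, H3.3cKO:MavsKO and H3.3cKO:Irf7KO, here double KOs). Peritoneal macrophages of WT and cKO mice formed the last experiment. Each group held 3 libraries, except the cKO groups of day 8, which held 2 each because the title and the library name of 2 further cKO libraries disagree on IFNγ.

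The libraries held 3614967 to 45581528 counts on genes, with a median of 18333377. H3f3a separated the genotypes, at 33.6 to 93.8 counts per 1000000 (CPM) in WT and 1.21 to 15.3 CPM in cKO libraries. H3f3b was clearly lower in cKO libraries of the antibody experiment only (16.7 to 67.8 against 295 to 468 CPM). In every other experiment the cKO and WT ranges overlapped. They were 187 to 220 against 200 to 285 CPM in the sets and 149 to 222 against 181 to 280 CPM in the time course. On day 8 they were 173 to 325 against 206 to 316 CPM, and in peritoneal macrophages 302 to 361 against 355 to 536 CPM. Lyz2 was at 4465 CPM or more in WT and at 81.9 CPM or less in cKO libraries. Among the double KOs, the Sting gene, Tmem173, was at 5.01 to 6.10 CPM in the Sting double KO against 68.2 to 91.6 CPM in cKO. Irf7 was at 98.3 to 112 CPM in the Irf7 double KO against 249 to 470 CPM in cKO. Counts on Mavs were at 37.2 to 37.9 CPM in the Mavs double KO and at 36.0 to 51.6 CPM in cKO, so the counts over the whole gene do not check that deletion. Macrophage markers such as Adgre1, Csf1r and Cd68 summed to at least 10351 CPM in every library.

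All 5 genes lie on the minus strand in GRCm38, the mm10 build. Plac8 (ENSMUSG00000029322) is at chr5:100553725-100572245 and Plbd1 (ENSMUSG00000030214) at chr6:136612070-136661928. F13a1 (ENSMUSG00000039109) is at chr13:36867178-37050244 and Vcan (ENSMUSG00000021614) at chr13:89655312-89742509. Hp (ENSMUSG00000031722) is at chr8:109575128-109579172. The annotation places opposite-strand genes within Plbd1 (Gm44401), F13a1 (Gm49144 and Gm30489) and Vcan (Gm16318 and Gm4117), and the counts used ignore strand, so reads in shared exons could not be assigned to either gene.

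RefSeq promoter entries (GRCm38.p6) were found for 4 of the 5 genes, all but Hp. The 250 bases before the start are printed for Plac8, Plbd1 and Vcan, the 3 members that rose with IFNγ in WT cells, 5′ to 3′ on the minus strand, with capitals where they hold GAGGAA, the core bound by the myeloid factor PU.1, on either strand.
Plac8, chr5:100572206-100572455: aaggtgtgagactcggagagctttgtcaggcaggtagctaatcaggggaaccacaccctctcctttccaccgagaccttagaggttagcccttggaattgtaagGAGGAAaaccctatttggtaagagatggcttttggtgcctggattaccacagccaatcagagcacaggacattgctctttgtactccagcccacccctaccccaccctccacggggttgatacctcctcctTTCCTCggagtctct
Plbd1, chr6:136661894-136662143: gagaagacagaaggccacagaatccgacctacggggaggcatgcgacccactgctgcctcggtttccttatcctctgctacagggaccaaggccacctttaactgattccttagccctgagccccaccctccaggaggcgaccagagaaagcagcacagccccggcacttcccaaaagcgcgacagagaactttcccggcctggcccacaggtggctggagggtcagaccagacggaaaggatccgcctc
Vcan, chr13:89742513-89742762: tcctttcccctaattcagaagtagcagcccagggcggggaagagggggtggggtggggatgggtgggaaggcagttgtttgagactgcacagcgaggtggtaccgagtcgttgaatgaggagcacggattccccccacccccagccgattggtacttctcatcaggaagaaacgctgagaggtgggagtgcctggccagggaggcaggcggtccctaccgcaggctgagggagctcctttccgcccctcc

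Plac8 held GAGGAA 141 to 146 bases before the start and, on the other strand, 10 to 15 bases before it, and F13a1 held it 61 to 66 bases before its first listed start. Of all 32851 promoters of this length, 23.3% held this motif. The C/EBP motif TTGCNNAA (9.56% of all promoters) was found in none of the 3 printed windows, and only in front of a second, downstream start of Plac8 among the members. The interferon-stimulated response element GAAANNGAAA (2.98%) and the AP-1 motif TGANTCA (6.75%) were found in none of the members' windows. These are matches of letters on both strands, and a missing match says nothing of a factor's binding elsewhere.

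The time course gave the course of each gene as marrow cells became macrophages. In WT cultures 4 of the 5 genes fell from day 3 to day 7. Plac8 was at 20.2, 29.6 and 36.5 CPM on day 3, at 3.94, 4.75 and 4.08 CPM on day 5 and at 1.10, 1.33 and 0.879 CPM on day 7. The 3 days did not overlap, and between day 3 and day 7 Plac8 fell by 4.72 on the log2 scale (SE 0.60, adjusted p = 0.000142). The adjusted p here and in what follows is that of edgeR's quasi-likelihood test with Benjamini-Hochberg adjustment over all genes of the experiment. The SE is the absolute log2 value divided by the square root of that test's F statistic.

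Hp followed the same course, at 35.3, 41.6 and 70.1 CPM on day 3, 9.43, 6.57 and 5.42 CPM on day 5 and 3.55, 2.10 and 2.07 CPM on day 7. Its days did not overlap, and it fell by 4.24 (SE 0.58, adjusted p = 0.000245). Vcan was at 27.3, 59.2 and 82.4 CPM on day 3 and at 7.20, 3.78 and 4.81 CPM on day 7, a fall of 3.41 on the log2 scale (SE 0.42, adjusted p = 0.000105). Plbd1 went from 27.5, 20.2 and 29.4 CPM to 3.29, 2.59 and 2.02 CPM and fell by 3.29 (SE 0.72, adjusted p = 0.00496). F13a1, the transglutaminase subunit, was at 130.1, 193 and 153 CPM on day 3 and 16.1, 97.5 and 58.7 CPM on day 7. Its days 3 and 7 did not overlap, but its log2 change of -1.47 (SE 0.53) did not pass (adjusted p = 0.0532). Without WT day 7 replicate 2, the highest of F13a1 on that day, it passed (-2.09, adjusted p = 0.0247).

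The 4 calls stand against 23.9% of all genes tested in either direction, and all 5 genes lay lower in every day 7 than in any day 3 library, as did 16.9% of all genes. The median log2 change of the 5 was -3.41, and that of all genes was 0.0518. In bulk cultures, fewer cells of a type and less RNA per cell cannot be told apart. Between days 3 and 5, 3 genes passed (Plac8, Vcan and Hp, background 2.64%) and 4 did not overlap (17.9% of all genes lay wholly lower), but leaving out 1 library moved this count to between 0 and 3. None passed without WT day 3 replicate 3 or without any 1 of the 3 WT day 5 libraries. Between days 5 and 7 none passed (background 0.238%) and 4 lay wholly lower (7.18%), although 4 of the 5 had an unadjusted p under 0.05 and DESeq2 called 2. Vcan passed between these days without WT day 5 replicate 1 (log2 change -1.87, adjusted p = 0.025).

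**Figure D1:**
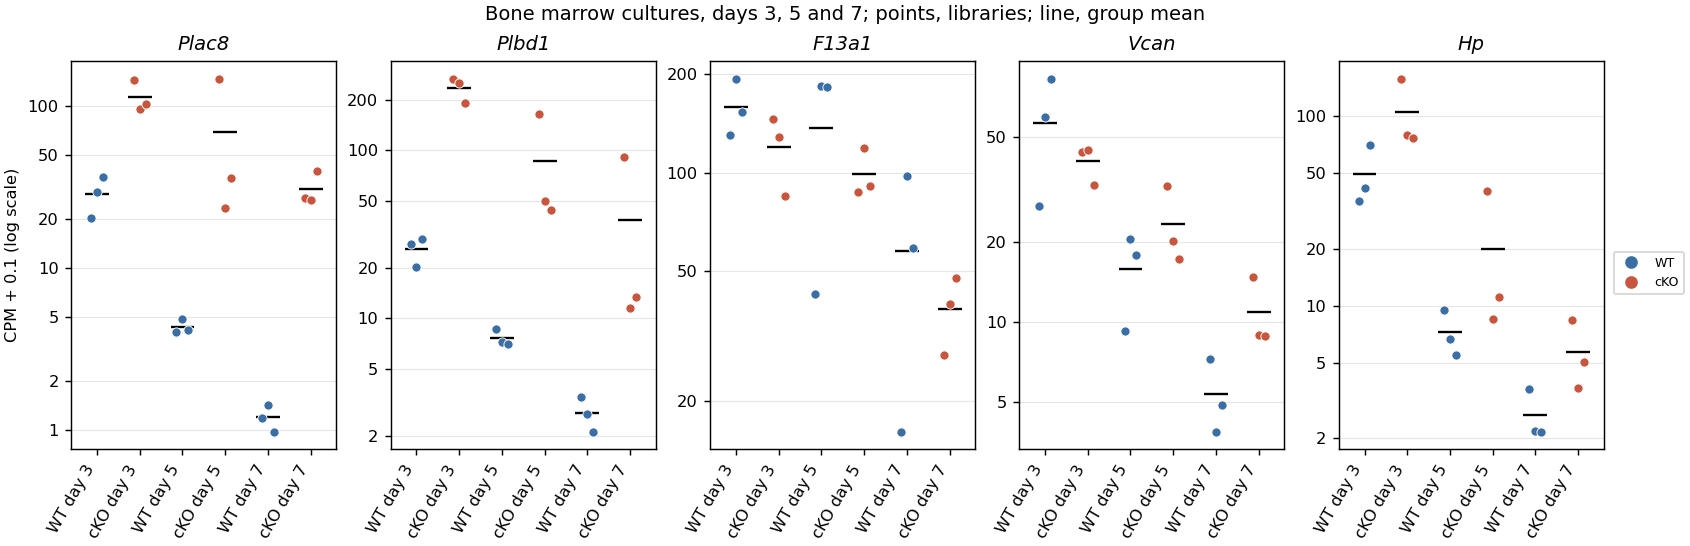
CPM + 0.1 on a log axis for the 5 genes in WT (blue) and cKO (red) marrow cultures on days 3, 5 and 7, with a point per library and a line at the group mean. Plac8 and Plbd1 lie above WT in every cKO library on each day, and all 5 genes are lower on day 7 than on day 3.

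In cKO cultures Plac8 and Plbd1 started from a higher level than in WT and were lower on day 7 than on day 3, but still above WT. Plac8 was at 144, 96.3 and 103 CPM on day 3, 148, 23.4 and 36.0 CPM on day 5 and 27.1, 26.2 and 39.5 CPM on day 7. Every cKO library was above the WT libraries of its day. The same held for 18.3%, 15.4% and 9.5% of all genes on days 3, 5 and 7. The cKO day 7 range of Plac8 overlapped that of WT day 3. Plbd1 was at 266, 249.6 and 191 CPM on day 3, 164, 49.9 and 43.9 CPM on day 5 and 90.9, 11.4 and 13.3 CPM on day 7. The log2 difference from WT was 1.99, 4.01 and 4.82 on days 3, 5 and 7 for Plac8 and 3.20, 3.51 and 3.87 for Plbd1, as a description of values that chose these genes.

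Single cultures carried part of these differences. The library cKO day 5 replicate 1 was high for both genes, and without it the day 5 log2 difference was 2.81 for Plac8 and 2.65 for Plbd1. The same library was the highest of its group for Hp (40.2 against 8.39 and 11 CPM), and the range of the summed neutrophil and progenitor markers in this group, 566 to 1900 and 208 to 525 CPM, was wide as well. Their part in these values was not tested. On day 7 Plbd1 was far higher in cKO replicate 1 than in the others, and without it the log2 difference was 2.23.

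The change within cKO cells from day 3 to day 7 passed for the same 4 genes as in WT, against 14% of all genes, and all 5 lay wholly lower (18.5%). Hp fell by 4.21 (SE 0.56, adjusted p = 0.000178), from 157, 79.2 and 76.6 CPM to 8.35, 3.57 and 4.93 CPM. Plbd1 fell by 2.61 (SE 0.64, adjusted p = 0.0132) and Vcan by 1.89 (SE 0.39, adjusted p = 0.00445). Plac8 fell by 1.89 (SE 0.48, adjusted p = 0.0153), a smaller log2 change than in WT. The difference between these 2 changes, a log2 value of 2.83, is a description, since it contains the contrasts that chose Plac8. F13a1 went from 145, 128 and 84.9 CPM to 27.6, 39.7 and 47.4 CPM, and its log2 change of -1.64 (SE 0.53) gave an adjusted p of 0.0501, or 0.0192 with the replicate number as a block. The day 7 calls of Plac8 and Plbd1 were lost without cKO day 7 replicate 2 (adjusted p = 0.0735 and 0.0548), that of Plac8 also without cKO day 3 replicate 1 (0.0596) and that of Plbd1 also without cKO day 7 replicate 3 (0.0637). Without cKO day 7 replicate 1, the high library of that day, the log2 change of Plbd1 was -4.255 (adjusted p = 0.000126). Between days 3 and 5 in cKO only Hp passed (log2 change -2.39, SE 0.51, adjusted p = 0.0191, background 3.59%) and 3 genes lay wholly lower (15.2%), and leaving out 1 library moved the count to between 0 (without cKO day 3 replicate 1 or cKO day 5 replicate 2 or 3) and 3 (without cKO day 5 replicate 1). Between days 5 and 7 no member passed by edgeR (background 0.0564%) and 3 lay wholly lower (5.88%), with an unadjusted p under 0.05 for 4 of 5 and a DESeq2 call for 1. These contrasts share their libraries with the comparison of genotypes that picked Plac8 and Plbd1.

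F13a1, Vcan and Hp gave no call between genotypes on day 3, 5 or 7 (backgrounds 7.73%, 2.83% and 1.4%). By edgeR, 1 of the 3 had an unadjusted p under 0.05 on each day, and DESeq2 called none. Hp was nonetheless above WT in every cKO library on days 3 and 7 (background of genes all above, 18.3% and 9.5%), and Vcan on day 7, at 14.8, 8.90 and 8.81 CPM against 7.20, 3.78 and 4.81 CPM. F13a1 overlapped between genotypes on all 3 days. The difference between the day 7 and day 3 genotype effects passed for none of the 3 (background 0.0439%), with 1 unadjusted p under 0.05 and no DESeq2 call.

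Markers of other stages moved over the same days. Of 14 neutrophil markers, 12 passed as lower on day 7 than on day 3 in WT and 13 in cKO, with Camp, a granule peptide, falling by 5.17 and 5.59 on the log2 scale. Their summed level was 1771 to 3256 CPM in WT and 2776 to 4326 CPM in cKO on day 3, and 148 to 265 and 175 to 388 CPM on day 7. All 12 granulocyte-monocyte progenitor markers fell in WT and 10 in cKO, among them Elane, a neutrophil elastase, by 7.10 and 5.13. On day 7 their sum was 6.51 to 13.9 CPM in WT and 38.7 to 91.8 CPM in cKO, and 5 of the 12, Cd34, Ctsg, Prtn3, Elane and Mpo, passed as higher in cKO (Cd34 at 19.8 against 1.16 CPM). Stromal markers summed to 88.9 to 127 CPM in cKO and 4.64 to 41.6 CPM in WT on day 7, with none of 5 passing. The part of these cell types in the levels of Plac8, Plbd1, Vcan and Hp was not tested.

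Of 20 classical monocyte markers, 10 fell and 1 (Ms4a4c) rose from day 3 to day 7 in WT, and 7 fell in cKO. Ly6c2, the surface protein that marks classical monocytes, fell by 4.66 in WT and by 3.42 in cKO, and was the 1 marker of this list that passed as higher in cKO on day 7 (35.9 against 2.54 CPM, log2 difference 3.80, SE 0.57, adjusted p = 0.00367). Of 15 macrophage markers, 7 rose in WT, such as Apoe, a lipid carrier, by 4.03, and 1 in cKO, the lysosomal Cd68, by 0.79. The 10 interferon response genes all passed as higher on day 7 than on day 3 in WT cells, with a median log2 change of 5.17. The relation of these lists to the levels of the 5 genes was not tested.

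The 3 sets of BMDMs gave the widest test of the group between genotypes. Same-numbered WT libraries of sets 1 and 3 deviated together from their group means (r 0.154 to 0.392). For cKO of these sets r was -0.00298 to 0.243. Whether sets 1 and 3 are independent is not known. Vcan, the matrix proteoglycan, was higher in all 3. It was at 15.7, 15 and 12.1 CPM in cKO against 4.68, 2.69 and 2.12 CPM in WT of set 1, at 15.1, 10.2 and 20.6 against 3.03, 3.23 and 3.81 CPM in set 2, and at 13.9, 14.9 and 10.7 against 2.93, 2.61 and 1.78 CPM in set 3. The groups did not overlap in any set, as for 21.3%, 20% and 20.8% of all genes that lay wholly higher in cKO. The log2 differences were 2.17 (SE 0.28, adjusted p = 2.03e-06), 2.19 (SE 0.27, adjusted p = 1.71e-06) and 2.41 (SE 0.29, adjusted p = 5.63e-07).

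Hp rose in sets 1 and 3. It was at 7.54, 9.11 and 6.98 CPM in cKO against 3.25, 1.16 and 2.12 CPM in WT of set 1 (log2 difference 1.88, SE 0.33, adjusted p = 0.000102), and at 6.32, 11.1 and 6.56 against 2.93, 1.68 and 1.65 CPM in set 3 (1.91, SE 0.33, adjusted p = 6.98e-05). In set 2 its cKO libraries, at 2.67, 2.86 and 3.42 CPM, were above those of WT, at 1.54, 2.48 and 2.06 CPM, without passing (log2 difference 0.55, SE 0.33, adjusted p = 0.263). Neutrophil markers moved with Hp, with 8 of 13 tested passing as higher in set 1, 2 in set 2 and 7 in set 3. Their sum was 315 to 375 CPM in cKO against 138 to 238 CPM in WT of set 1, 220 to 245 against 202 to 284 CPM in set 2, and 276 to 380 against 139 to 250 CPM in set 3, and their part in the level of Hp was not tested.

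F13a1 gave no common direction. In set 3 it was at 76.4, 91.9 and 52.8 CPM in cKO against 268, 124 and 81.2 CPM in WT, and although the groups overlapped the log2 difference of -1.10 passed (SE 0.37, adjusted p = 0.0214). That call was lost without WT set 3 replicate 1 (log2 difference -0.48, adjusted p = 0.316), without cKO set 3 replicate 3 (-0.91, adjusted p = 0.107) and with only the compared groups in the model (-1.05, adjusted p = 0.102). In set 2 every cKO library was above WT, at 67.1, 56.4 and 75.7 against 38.3, 42.6 and 46.9 CPM, without passing (adjusted p = 0.245). Of the 3 tested genes, 2 passed in set 1, 1 in set 2 and 3 in set 3, against backgrounds of 34.7%, 21% and 34.9% of all genes.

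Plac8 and Plbd1, as a description, were above WT in every cKO library of the sets, as were 21.3%, 20% and 20.8% of all genes. Plac8 was at 70.0, 61.2 and 54.9 CPM in cKO of set 1, 28.7, 34.2 and 27.2 CPM in set 2 and 64.1, 82.7 and 66.2 CPM in set 3, while no WT library exceeded 3.43 CPM. Plbd1 was at 136, 96.5 and 119 CPM in set 1, 12.2, 37.3 and 10.7 CPM in set 2 and 108, 84.4 and 110.5 CPM in set 3, while WT libraries were at 2.66 to 14.5 CPM. For both genes set 2 was the lowest of the 3 cKO sets, with no overlap with sets 1 and 3, which overlapped each other.

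Progenitor and monocyte markers were higher in the same cKO libraries. Of 12 progenitor markers, 11, 10 and 11 passed as higher in sets 1, 2 and 3, and their sum was 152 to 183, 86.5 to 97.3 and 121 to 210 CPM in cKO against 11 to 30.6 CPM in WT. Of 20 classical monocyte markers 9 passed as higher in each set, led by Ly6c2, which was at 92.8, 56.1 and 82.6 CPM on average in cKO of the 3 sets against 3.45 to 3.85 CPM in WT. In these sets 3, 2 and 5 of the 20 passed as lower, Ifitm6 in each of them. Markers of other cells also moved in these libraries, at low levels. Of 7 dendritic cell markers tested, the same 4, Zbtb46, Siglech, Xcr1 and Ccr7, passed as higher in each set and Cd209a as lower in sets 1 and 3, and the list summed to 5.20 to 18.9 CPM in cKO and 2.42 to 8.15 CPM in WT. Of 5 eosinophil, basophil and mast cell markers, 2, 3 and 4 passed as higher, with sums of 4.60 to 10.4 CPM in cKO and 1.19 to 6.20 CPM in WT. Of 10 nonclassical monocyte markers, 6, 4 and 6 passed as higher and Itgax as lower in set 2. Of 7 B cell markers, 4, 1 and 4 passed as higher, while Ighm was lower in sets 1 and 3. The part of these cells in the levels of the 5 genes was not tested.

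The double KOs were compared with the mean of the 3 cKO sets, since the labels do not tie a set to a double KO. In the order of the series, set 1 is followed by the Sting, set 2 by the Mavs and set 3 by the Irf7 double KO. Count files of set 3 and the Irf7 double KO list 54146 genes, those of the other groups here 55536. Each double KO had the fewest genes called against the set before it (22.5%, 0.487% and 0.89%). In a call against the mean, differences between sets and the second deletion cannot be told apart. The members that passed differed between the double KOs. Vcan was near WT levels in 2 of the 3, at 4.93, 5.84 and 4.07 CPM in the Sting double KO and 4.39, 3.88 and 3.89 CPM in the Irf7 double KO, both below every cKO library. It was lower than cKO by 1.52 with Sting deleted (SE 0.23, adjusted p = 3.04e-05) and by 1.81 with Irf7 deleted (SE 0.24, adjusted p = 1.97e-05). In the Mavs double KO it was at 16.6, 7.90 and 12.9 CPM and did not pass. Lying wholly below cKO held for 12.3% of all genes with Sting, and for 4.3% with Irf7 deleted. These Vcan calls held against each of the 3 cKO sets taken alone (22.5%, 33.7% and 31.7% of all genes called for Sting, 7.83%, 19.6% and 0.89% for Irf7), where the log2 difference was -1.41 to -1.63 for Sting and -1.70 to -1.91 for Irf7.

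F13a1 was lower in the Sting double KO, at 35.9, 29.0 and 26.7 CPM, below every cKO library (log2 difference -1.25, SE 0.33, adjusted p = 0.00411), and this held against each set alone, at -1.12 to -1.36. In the Irf7 double KO it was at 67.9, 31.6 and 35.3 CPM and in the Mavs double KO at 62.9, 62.8 and 69.6 CPM, and neither passed.

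Plac8 was at 66.0, 58.3 and 63.1 CPM in the Sting double KO, which overlapped the cKO sets. In the Mavs double KO it was at 28.3, 27.6 and 22.8 CPM (log2 difference -0.96, SE 0.27, adjusted p = 0.0280), and in the Irf7 double KO at 7.03, 32.3 and 39.9 CPM (-0.95, SE 0.27, adjusted p = 0.0289). The cKO sets used as reference share their libraries with the comparison of genotypes that picked Plac8. That choice favours high cKO values, so these p-values are not free of it. Both ranges overlapped cKO set 2, and against set 2 alone, where 0.487% and 19.6% of all genes were called, the log2 differences were -0.19 and -0.18 with no call. Against sets 1 and 3 alone Plac8 was called lower both in the Mavs double KO (-1.24 and -1.44, backgrounds 12.8% and 18.1%) and in the Irf7 double KO (-1.23 and -1.43, adjusted p = 0.0193 and 0.0335, backgrounds 7.83% and 0.89%). The Mavs call was also lost when any 1 of the 3 Mavs double KO libraries was left out (adjusted p = 0.0768, 0.0836 and 0.158), and the Irf7 call without replicate 1 (log2 difference -0.50, adjusted p = 0.0798) or replicate 2 (-1.12, adjusted p = 0.0535) and with only the compared groups in the model (-0.92, adjusted p = 0.0608).

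Hp gave the same pattern as Plac8. It was at 3.52, 1.71 and 2.20 CPM in the Mavs double KO (log2 difference -1.21, SE 0.28, adjusted p = 0.00574) and at 1.59, 3.16 and 3.17 CPM in the Irf7 double KO (-1.11, SE 0.28, adjusted p = 0.0114), and at 8.09, 5.84 and 6.07 CPM in the Sting double KO. Against cKO set 2 alone neither call held (log2 differences -0.27 and -0.17). The Mavs call was lost without Mavs replicate 2 (-1.0, adjusted p = 0.0614) and the Irf7 call without Irf7 replicate 1 (-0.85, adjusted p = 0.109).

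Plbd1 passed in no double KO against the mean of the sets, with values of 55.1, 171 and 163 CPM in Sting, 25.9, 106 and 70.9 CPM in Mavs and 19.5, 58.9 and 77.8 CPM in Irf7. The Sting double KO was higher by 1.07 on the log2 scale (SE 0.43, adjusted p = 0.0529), and by 2.69 against set 2 alone (SE 0.59, adjusted p = 0.00108), but by 0.15 and 0.36 against sets 1 and 3 alone (adjusted p = 0.880 and 0.660). Against the mean of the sets Plbd1 passed without Sting double KO replicate 1 (1.43, adjusted p = 0.025) or without cKO set 2 replicate 2 (1.33, adjusted p = 0.0127). In all, 2, 2 and 3 of the 5 genes passed as lower than the mean of the sets in the Sting, Mavs and Irf7 double KOs, none as higher. The background was 36.1%, 8.79% and 9.85% of all genes in either direction. These counts for Mavs and Irf7 include Plac8, whose cKO reference values were part of its choice. Against set 2 alone, the set listed before the Mavs double KO, no member passed for Mavs (0.487% of all genes called).

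Against the mean of the 3 cKO sets, progenitor and neutrophil markers were lower in the same 2 double KOs as Plac8 and Hp. The lists were not compared with each set alone. Both sums were lower in cKO set 2 than in cKO sets 1 and 3, and the calls of Plac8 and Hp were lost against set 2. Of 12 progenitor markers, 11 passed as lower and 1, Cd34, as higher in the Mavs, 9 as lower in the Irf7 and 2, Cd34 and Myb, as lower in the Sting double KO, and their sums were 76.6 to 83.7, 46.2 to 79.6 and 97.3 to 126 CPM. Of 13 neutrophil markers, 5 and 9 passed as lower in the Mavs and Irf7 double KOs, while 5 passed as higher and 1, Mmp8, as lower in the Sting double KO. The 15 macrophage markers gave 12 higher and none lower in the Sting double KO. Stromal markers summed to 164 to 203 CPM in the Sting, 85.1 to 303 CPM in the Mavs and 30.1 to 49.1 CPM in the Irf7 double KO against 23.8 to 71.6 CPM in cKO, and 3, 6 and none of 6 passed as higher. Of 7 dendritic cell markers, 1, 4 and 2 passed as lower in the Sting, Mavs and Irf7 double KOs. The part of these cells in the members' levels was not tested.

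**Figure D2:**
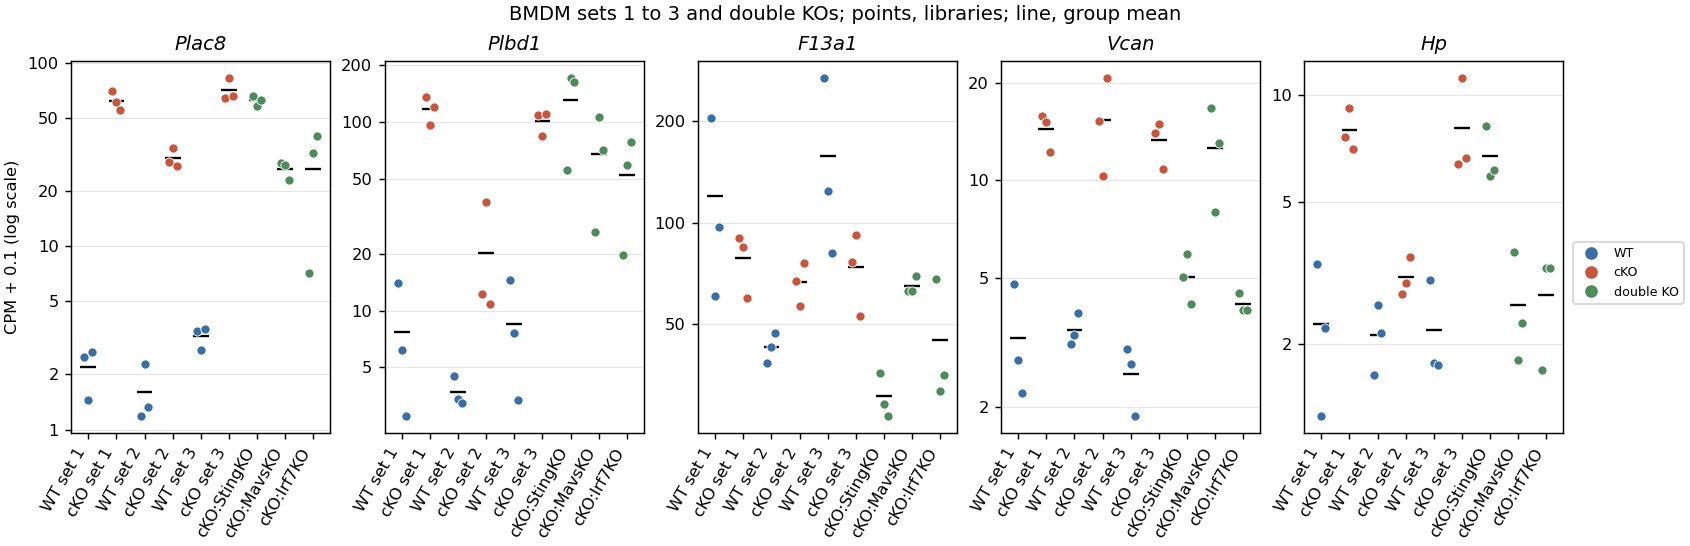
CPM + 0.1 on a log axis for the 5 genes in WT (blue) and cKO (red) BMDMs of sets 1 to 3 and in the 3 double KOs (green), with a point per library and a line at the group mean. Vcan lies at 3.88 to 5.84 CPM in the Sting and Irf7 double KOs, below every cKO library, and cKO set 2 is the lowest cKO set for Plac8, Plbd1 and Hp.

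Day 8 BMDMs were compared with and without 12 h of IFNγ, the type II interferon that activates macrophages. Plac8, Vcan and Plbd1 rose and F13a1 fell in WT cells. Plac8 was at 0, 0.637 and 0.263 CPM untreated, from 0, 6 and 3 counts, and at 2.47, 3.42 and 7.47 CPM with IFNγ (log2 change 3.83, SE 0.81, adjusted p = 0.00386). Vcan went from 7.02, 8.18 and 5.87 CPM to 52.0, 83.9 and 47.6 CPM (3.12, SE 0.35, adjusted p = 7.54e-05). Plbd1 went from 7.35, 5.52 and 6.04 CPM to 17.4, 17 and 20.2 CPM (1.53, SE 0.19, adjusted p = 0.000153).

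F13a1 moved the other way, from 2.63, 7.01 and 5.69 CPM to 1.29, 1.19 and 2.17 CPM (log2 change -1.71, SE 0.44, adjusted p = 0.0112). In none of these 4 genes did the WT groups overlap, against 31.5% of all genes wholly higher and 30.4% wholly lower. All 4 genes that could be tested passed, against 40.1% of all genes, and the count was 4 whichever library was left out. Hp had 0 to 5 counts in every day 8 library and was not tested.

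In cKO cells Plac8 went from 1.87 and 4.40 CPM to 171 and 72.9 CPM (log2 change 5.27, SE 0.66, adjusted p = 0.000253), and Vcan from 5.84 and 8.90 CPM to 35.0 and 84.1 CPM (3.07, SE 0.43, adjusted p = 0.000472). Both genes were wholly higher with IFNγ (27.5% of all genes). Plbd1 was at 9.01 and 9.97 CPM untreated and at 8.45 and 13.1 CPM with IFNγ, an overlap (log2 change 0.27, SE 0.24, adjusted p = 0.423). F13a1 was at 2.84 and 3.03 CPM untreated and at 3.02 and 0.942 CPM with IFNγ. Of the 4 tested genes 2 passed, against 33.6% of all genes. The 2 cKO libraries with IFNγ differed more than any other replicate pair of the series (chi-square per degree of freedom 292), and replicate 1 held 3614967 counts, the lowest of the series, with 57.1% of its reads unmapped. TMM scaling raised the CPM of replicate 1, where 284 counts of Plac8 gave 171 CPM. In replicate 2, with 9543916 counts on genes, 619 counts gave 72.9 CPM. Without replicate 1, which leaves 1 library in the group, the log2 change was 4.59 for Plac8 and 3.55 for Vcan.

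The difference between the IFNγ changes of the genotypes passed for no gene in the whole table by edgeR (background 0%), where 1105 of 13075 genes had an unadjusted p under 0.05 and DESeq2 called 48. It was 0.69 for F13a1 (SE 0.81, adjusted p = 0.804) and -0.048 for Vcan (SE 0.53, adjusted p = 0.991). For Plac8 and Plbd1 it was 1.45 and -1.26, values given as a description since they contain the contrasts that chose these genes. Also as a description, with IFNγ Plac8 was 4.74 log2 units higher in cKO than in WT, with all cKO libraries above WT (15.8% of all genes), while Plbd1 was lower in both cKO libraries than in any WT library (log2 difference -0.67, 18.7% of all genes). That value of Plbd1 was -1.13 without cKO IFNγ replicate 2 and -0.45 without replicate 1. F13a1 and Vcan overlapped between genotypes with and without IFNγ and passed in neither (backgrounds 0.612% untreated and 4.83% with IFNγ), with no unadjusted p under 0.05 and no DESeq2 call.

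Other classical monocyte markers rose with IFNγ too. Of 17 tested, 10 passed as higher in WT and 8 in cKO and none as lower, among them Ms4a4c in WT (112 against 3.50 CPM, log2 change 5.01). Of 3 dendritic cell markers tested, Clec9a and Xcr1 passed as higher in both genotypes, Clec9a at 54.9 against 0.123 CPM in WT (log2 change 8.54) and at 26.1 against 0.252 CPM in cKO (6.59). Of 8 nonclassical monocyte markers, 4 passed as lower in WT and 1 in cKO, the chemokine receptor Cx3cr1 in both (by 7.13 and 6.14). Of 15 proliferation genes, 4 (Rrm2, Mcm2, Tyms and Mcm5) passed as lower in WT and 9 in cKO. Of the neutrophil and the progenitor markers, 2 each were high enough to be tested, and their summed levels were 42.4 to 143 and 4.76 to 58.6 CPM over the day 8 groups. Stromal markers summed to 9.22 to 118 CPM, except in cKO IFNγ replicate 1 at 354 CPM. The part of these in the IFNγ changes was not tested.

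**Figure D3:**
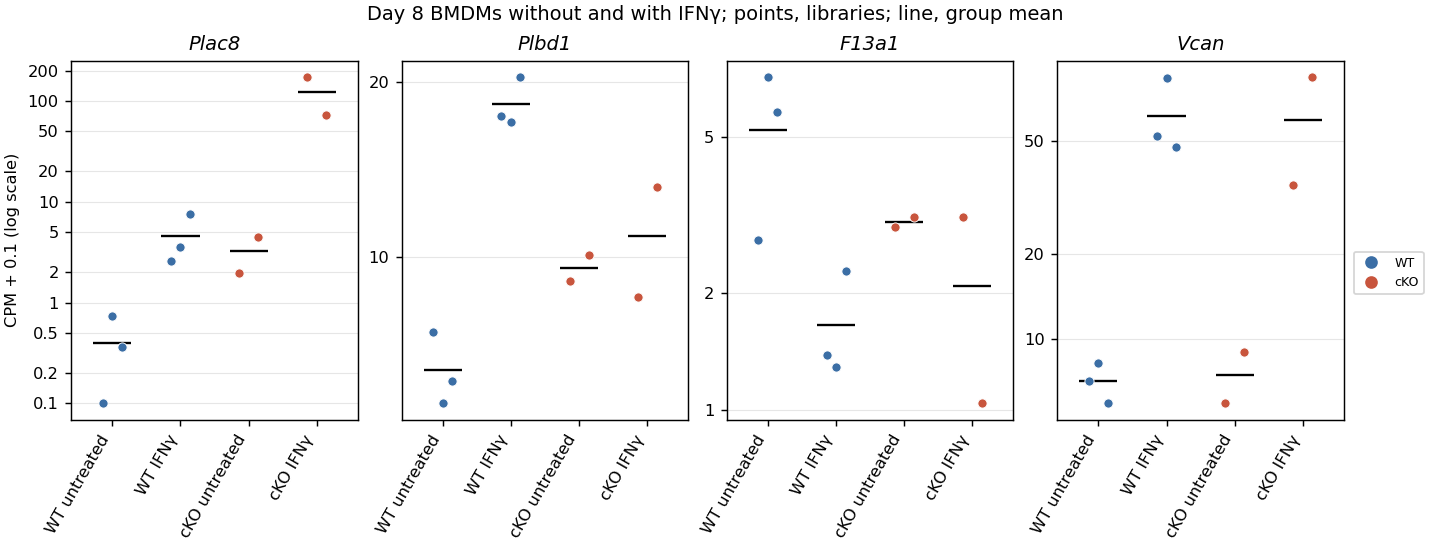
CPM + 0.1 on a log axis for Plac8, Plbd1, F13a1 and Vcan in day 8 BMDMs without and with IFNγ for 12 h, WT in blue (3 libraries a group) and cKO in red (2 libraries a group), with a point per library and a line at the group mean. Plac8 and Vcan are higher with IFNγ in both genotypes, and Plbd1 in WT.

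The antibody experiment asked what signalling through IFNAR1 adds. In cKO cells Plbd1 was the 1 member that passed between the IFNAR1 and the control antibody. It was at 16.7, 15.7 and 21.9 CPM with no antibody, 53.8, 119 and 161 CPM with the control antibody and 2.79, 6.21 and 10.7 CPM with the IFNAR1 antibody. The 3 arms did not overlap. Against the control antibody it was lower by 4.10 on the log2 scale (SE 0.45, adjusted p = 0.000730), and 1 of the 5 members passed against 4.03% of all genes, whichever library was left out. The cKO arms share their libraries with the comparison of genotypes that picked Plbd1. That choice favours high cKO values, so the p-values of Plbd1 between these arms are not free of it. Plac8, Plbd1 and Hp lay wholly lower (14.5% of all genes). The reference matters, because Plbd1 was also higher with the control antibody than with none, by 2.61 (SE 0.42, adjusted p = 0.0145). Against no antibody, an alternative added after the data were seen, the IFNAR1 arm was lower by 1.49 without passing (SE 0.42, adjusted p = 0.485, background 0.145%).

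In WT cells Plbd1 was again highest with the control antibody, while the other arms overlapped, at 3.46, 3.06 and 4.2 CPM with no antibody, 8.12, 8.16 and 8.88 CPM with the control antibody and 2.96, 2.45 and 5.32 CPM with the IFNAR1 antibody. Neither step passed (log2 changes 1.23, SE 0.43, adjusted p = 0.0831, and -1.22, SE 0.43, adjusted p = 0.0739). With the replicate number as a block, which the libraries with no and with control antibody share, the first passed (log2 change 1.255, adjusted p = 0.0242). The difference between genotypes in the IFNAR1 step was -2.88 for Plbd1, a description since it contains the contrasts that chose the gene. No gene of the table passed that test by edgeR (background 0%), while 975 of 17191 genes had an unadjusted p under 0.05 and DESeq2 called 42, with F13a1, Vcan and Hp not among them.

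Vcan and Hp also stood highest with the control antibody in WT. Vcan was at 8.57, 2.78 and 3.65 CPM with none, 19.6, 19.4 and 16.5 CPM with control and 3.04, 1.82 and 14.1 CPM with IFNAR1 antibody, and the control arm overlapped neither of the others. Hp, near its floor, was at 0.362, 0.424 and 0.354 CPM, then 1.19, 0.736 and 1.56 CPM, then 0.346, 0.188 and 0.648 CPM. None of the 5 members passed in WT, for the control antibody against none (background 8.9%) or for IFNAR1 against control (9.89%). In each, Plbd1, Vcan and Hp did not overlap (21.6% of all genes wholly higher with control, 17.2% wholly lower with IFNAR1). By edgeR 3 of the 5 had an unadjusted p under 0.05 in each, and DESeq2 called 2 and 1. Without WT IFNAR1 replicate 3, Plbd1, Vcan and Hp all passed as lower with the IFNAR1 antibody (log2 changes -1.62, -2.905 and -2.01, adjusted p = 0.0168, 0.00614 and 0.0131).

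In cKO cells Vcan was at 9.65, 9.45 and 11.1 CPM with none, 13.7, 29.5 and 25.2 CPM with control and 2.41, 16.7 and 18.7 CPM with IFNAR1 antibody. Hp passed as higher with the control antibody than with none (log2 change 3.04, SE 0.68, adjusted p = 0.0386, 2 of 5 members with Plbd1, background 1.46%), but this rests on 2, 1 and 1 counts against 14, 9 and 7. Leaving out 1 library moved that count of 2 to between 0 and 2. The calls were lost without cKO no antibody replicate 1 (adjusted p = 0.0898 for Plbd1 and 0.165 for Hp), replicate 2 (0.102 and 0.157), cKO control replicate 2 (0.0848 and 0.152) or replicate 3 (0.0995 and 0.179), and that of Hp also without cKO no antibody replicate 3 (0.0967).

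Plac8 was near its floor in WT cells of this experiment, at 1 to 4 counts a library. In cKO it was at 6.93, 1.44 and 1.26 CPM with none, 1.94, 2.35 and 1.04 CPM with control and 0.571, 0.314 and 0 CPM with IFNAR1 antibody. The IFNAR1 arm lay below both other cKO arms, with a log2 difference of -2.43 from control (SE 0.82, adjusted p = 0.108) and of -3.32 from no antibody (SE 0.79, adjusted p = 0.201), and neither passed. F13a1 was high and spread widely, from 95.2 to 556 CPM over the 6 groups, and overlapped in every comparison. Between genotypes, F13a1, Vcan and Hp passed in no arm (backgrounds 7.1%, 4.45% and 0.675%), with 1, 0 and 0 unadjusted p under 0.05 and no DESeq2 call. With no antibody Hp was below WT in every cKO library (0.107, 0.0801 and 0.0701 CPM, log2 difference -2.03, adjusted p = 0.0831), as were 19.2% of all genes. In the same arm Vcan was above WT in every cKO library (log2 difference 1.01, adjusted p = 0.35), as were 20.2% of all genes.

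Proliferation genes moved with these arms. Of 15, 10 passed as lower with control than with no antibody in WT and 5 in cKO, and 13 and 11 passed as higher with the IFNAR1 than with the control antibody. Their sum was 324 to 684 CPM in WT and 314 to 534 CPM in cKO with the control antibody, and 733 to 3058 CPM in the other arms. Of 20 classical monocyte markers in cKO, 3 passed as higher with control than with no antibody (Ly6c2, Chil3 and Fn1), and 3 as lower (Ly6c2, Chil3 and Napsa) and 1 as higher (Clec4e) with the IFNAR1 than with the control antibody. Ly6c2 was at 1.44, 8.13 and 0.368 CPM on average with none, control and IFNAR1 antibody. In WT 2 passed as higher and 2 as lower with control antibody, and 1 as higher with the IFNAR1 antibody. Stromal markers in cKO were highest with the control antibody too, at 173 to 316 CPM against 38.0 to 80.6 CPM with none and 44.6 to 89.0 CPM with IFNAR1 antibody, with none of 5 passing. The part of these cells and of proliferation in the levels of Plbd1 was not tested.

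**Figure D4:**
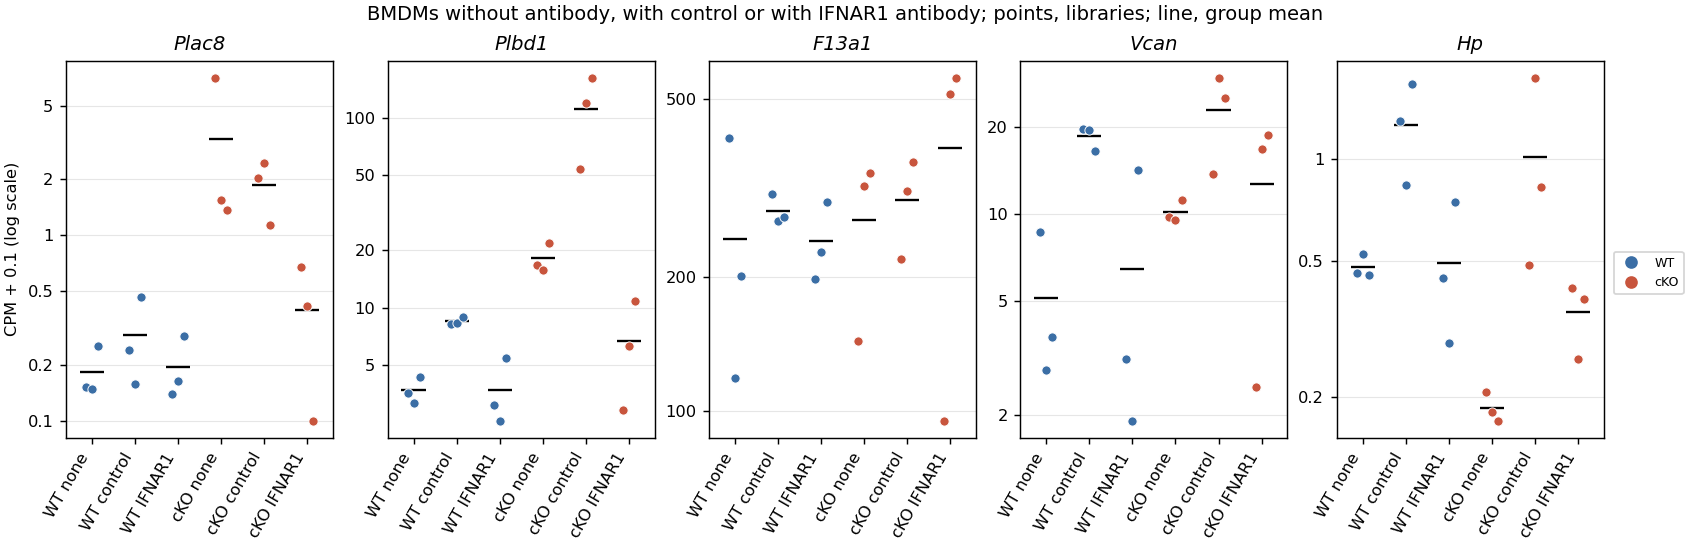
CPM + 0.1 on a log axis for the 5 genes in WT (blue) and cKO (red) BMDMs with no antibody, control antibody or IFNAR1 antibody, with a point per library and a line at the group mean. Plbd1 in cKO is highest with the control antibody (53.8 to 161 CPM) and lowest with the IFNAR1 antibody (2.79 to 10.7 CPM).

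Peritoneal macrophages, taken from the animal rather than grown from marrow, held another mix of the 5 genes. F13a1 was at 376, 110.2 and 210.2 CPM in WT and at 17.2, 14.8 and 4.55 CPM in cKO. The groups stood far apart, with a log2 difference of -4.21 (SE 0.57, adjusted p = 0.0166), where 1 of 3 tested genes passed against 0.971% of all genes, and 6.5% lay wholly lower in cKO. The size was -3.85 to -4.53 when any 1 of the 3 cKO libraries was left out, but the adjusted p was then 0.0529 to 0.0687. Vcan overlapped between genotypes, at 3.93, 13.7 and 5.19 CPM in WT and 5.56, 15.7 and 8.32 CPM in cKO.

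Hp was high in both genotypes, at 209, 295 and 217 CPM in WT and 274, 196 and 331 CPM in cKO, with no call. Plac8 was above WT in every cKO library, at 14, 7.28 and 17.6 CPM against 1.46, 3.69 and 1.46 CPM, as a description (8.47% of all genes lay wholly higher). Plbd1 was not, at 13.9, 10.7 and 10.5 CPM in cKO against 26.8, 13.3 and 16 CPM in WT. Resident peritoneal macrophage markers such as Gata6 and Icam2 summed to 30521 to 36098 CPM in WT and 31649 to 34718 CPM in cKO.

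Of the other lists in these cells, stromal markers summed to 69.6 to 137 CPM in WT and 27.7 to 58.1 CPM in cKO, and neutrophil markers to 458 to 571 and 507 to 583 CPM. The macrophage list summed to 36002 to 46170 CPM in WT and 26263 to 31030 CPM in cKO, and of its 15 genes 2 (Gpnmb and Trem2) passed as higher and 2 (Mrc1 and Apoe) as lower, the mannose receptor Mrc1 at 2.60 CPM in cKO against 28.1 CPM in WT (log2 difference -3.37, SE 0.38, adjusted p = 0.00888). Of 3 dendritic cell markers tested, Cd209a passed as lower in cKO (5.96 against 16.7 CPM, log2 difference -1.47, adjusted p = 0.0402), and the list summed to 19.8 to 27.4 CPM in WT and 13.1 to 28 CPM in cKO. The part of these differences in the level of F13a1 was not tested.

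**Figure D5:**
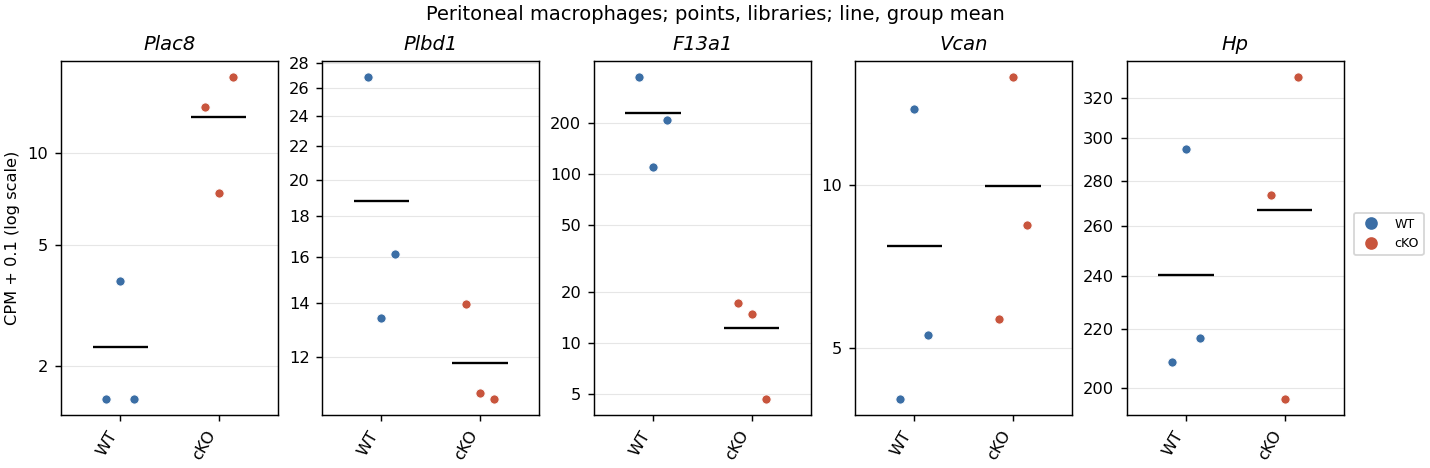
CPM + 0.1 on a log axis for the 5 genes in WT (blue) and cKO (red) peritoneal macrophages, with a point per library and a line at the group mean. F13a1 lies at 110.2 to 376 CPM in WT and at 4.55 to 17.2 CPM in cKO, and Hp at 196 to 331 CPM in both.

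Per kilobase of exon, which allows levels of different genes to be compared, the order of the 5 differed between sources. In WT marrow cultures on day 3, Hp (30.5 ± 11.5 CPM per kb, SD, n = 3), F13a1 (23.5 ± 4.75) and Plac8 (18.1 ± 5.12) did not differ beyond their spread, and Plbd1 (9.77 ± 1.84) and Vcan (3.89 ± 1.91) were lower. On day 7 F13a1 was the highest (8.52 ± 6.04), and Hp (1.60 ± 0.526), Plbd1 (0.999 ± 0.241), Plac8 (0.692 ± 0.141) and Vcan (0.364 ± 0.121) followed, each near its neighbour. In WT peritoneal macrophages Hp led (149.5 ± 29.5), before F13a1 (34.4 ± 19.9), Plbd1 (7.11 ± 2.69), Plac8 (1.38 ± 0.809) and Vcan (0.526 ± 0.367).

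Over the 73 assigned BMDM libraries, with each experiment centred on its mean, Plac8 and Plbd1 varied together (Pearson's r of log2 CPM 0.78), and Vcan followed both (0.639 and 0.619). Over the 33 WT libraries alone, r was 0.761 between Plac8 and Plbd1, 0.787 between Plac8 and Vcan and 0.757 between Plbd1 and Vcan. The centring used all libraries of an experiment, cKO included. The WT values therefore still carry the size of each experiment's cKO difference, which chose Plac8 and Plbd1, and are no separate support. F13a1 gave -0.0848 to 0.2 with each of them. The genes most like Plac8 among 12792 were Itgb7 (0.883), Trp53i11 (0.872) and Hsh2d (0.858). Those most like Plbd1 were Rab15 (0.9), Ramp3 (0.85) and Plekhg4 (0.829), and those most like Vcan were Met (0.831), Serpinb9 (0.817) and Procr (0.810). For F13a1 the 3 highest values were lower, with Ptgs1 (0.658), Tns4 (0.622) and Fam43a (0.606). The libraries of a group share their condition, so these values describe the pattern over groups. Hp was left out because it was not tested on day 8.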

How the data were processed

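RNA-seq gene counts of 81 libraries were used. The authors trimmed reads with Cutadapt, aligned them to mm10 with STAR and deposited its unnormalized counts per gene, of which the unstranded column (column 2) was taken. The labels name an rRNA-depletion kit for all libraries, and the study's methods name SMART-Seq v4 for peritoneal macrophages, which were therefore modelled alone. Of all reads, 1.69 to 57.1% were unmapped, 5.81 to 17.5% multimapping, 3.76 to 28.9% on no gene and 3.16 to 6.23% ambiguous, and these entered no library size. In each of 5 experiments, genes were filtered with filterByExpr (minimum count 10, total 15), scaled by TMM and tested with edgeR 4.0.16 (R 4.3.3) quasi-likelihood, 1 term per group, Benjamini-Hochberg threshold 0.05. The scripts were tested on simulated data. CPM are counts per 1000000 of the TMM-scaled library. Exon lengths come from GENCODE M21. Levels were not compared between experiments by test. The counts give only counting precision for a library, and the spread between libraries sets the errors. The labels call replicates biological.

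The members and marker lists were chosen with earlier results of these data known. Named were the 5 members, the targeted genes, at most 4 called genes of a list by size of change, and for each member the 3 genes of highest Pearson's r (log2 CPM, prior count 2). Replicate numbers recur across groups without a stated meaning. Of 73 pairs of groups that share numbers, 10 had a correlation of same-numbered deviations over 0.1 in every pair: WT with cKO on days 3 and 7 and in peritoneal cells, cKO day 7 with days 3 and 5, day 8 WT with and without IFNγ, no with control antibody in each genotype, no with IFNAR1 antibody in cKO, and WT of sets 1 and 3. There the replicate block is given where it changes a call. No 2 replicates of a group agreed within sampling noise (lowest chi-square per degree of freedom 3.33). The 2 day 8 cKO libraries with conflicting labels entered no group. Alternatives were DESeq2 1.42.0, RLE scaling, no filter, only the compared groups, the replicate block, leaving out each library and each cKO set as the reference of a double KO.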

Additional observations from a re-analysis of the deposited data

Results flagged for a closer look

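In day 8 BMDMs with IFNγ, Plbd1 was below WT in both cKO libraries (log2 difference -0.67). That value was -0.45 without cKO IFNγ replicate 1, the library with the lowest counts of the series. It was -1.13 without replicate 2, which leaves only that library. In 9 of the 12 comparisons of genotypes all cKO libraries were above WT for Plbd1. F13a1 was below WT in every cKO library of peritoneal macrophages (log2 difference -4.21) and above WT in every cKO library of BMDM set 2 (0.64). Hp was below WT in every cKO library with no antibody (log2 difference -2.03), from at most 9 counts a library, while all cKO libraries were above WT in 5 of 10 comparisons. These differences between comparisons were not tested. Over the 12 comparisons of genotypes, 4.19% to 21.3% of all genes had every cKO library above WT.

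The 2 day 8 cKO libraries with conflicting labels entered no comparison. In the first, Plac8 was at 0.980 CPM and Plbd1 at 11.6 CPM, and in the second at 84.6 and 12.6 CPM, all above the highest untreated WT library (0.637 and 7.35 CPM). Vcan was at 89.6 CPM in the second, against at most 8.18 CPM in untreated WT. Whether either library had received IFNγ is not taken from these values.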

How the results depend on the processing

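With no filter on low counts, the number of members called moved to 1 for cKO against WT on day 5, 3 for WT and 1 for cKO between days 5 and 7, 2 for cKO between days 3 and 5, 1 for the day 7 minus day 3 genotype effect, 1 and 2 for the IFNAR1 and control antibody steps in WT, 3 for set 2 and 4 for the Sting double KO. The cause was not tested. DESeq2 gave 2 and 1 for WT and cKO between days 5 and 7 and 1 and 2 for the IFNAR1 and control antibody steps in WT. With only the compared groups in the model, which are fewer libraries, the counts were 0 for cKO between days 3 and 5, 3 for the control antibody step in WT, 2 for set 2 and 4 for the Sting double KO. Against cKO set 2 alone, 5 members passed for Sting, 0 for Mavs and 1 for Irf7. With no antibody as the reference, no member passed in cKO, and the log2 changes with the IFNAR1 antibody turned to 0.0085 for Plbd1, 0.35 for Vcan and 0.078 for Hp in WT and to 1.47 for Hp in cKO.

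The replicate block moved the count to 2 for cKO between days 3 and 5 (Plbd1 -1.73, adjusted p = 0.0480), to 1 for the IFNAR1 step in WT (Plbd1 -1.30, adjusted p = 0.0203) and to 1 for the control antibody step in WT, and F13a1 passed in WT from day 3 to day 7 (-1.64, adjusted p = 0.0191). Except for the control antibody step, these groups missed the rule of r over 0.1 in every pair. The correlations were 0.0901 to 0.366 for cKO days 3 and 5 and 0.0865 to 0.398 for WT days 3 and 7. For the IFNAR1 step in WT they were 0.0394 to 0.159. Whether the numbers pair these libraries is not known. Leaving out 1 library gave counts of 0 to 3 for WT and for cKO between days 3 and 5, 0 to 1 for each between days 5 and 7, 2 to 4 for cKO between days 3 and 7, 0 to 1 for peritoneal macrophages, 0 to 3 for the IFNAR1 step in WT, 0 to 2 for the control antibody step in cKO and for Mavs, and 1 to 3 for Irf7. Without cKO day 5 replicate 1 the cKO change of Plac8 between days 5 and 7 was 0.049 in place of -1.16 (-1.57 to 0.049 over the libraries left out), and without cKO IFNγ replicate 2 that of Plbd1 with IFNγ was -0.19 (-0.19 to 0.49). RLE scaling changed no count by over 1.5 times. Hp, Plac8 in WT antibody cultures and day 8 F13a1 rest on few counts, which limits what could be detected.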
